A study of Mus musculus with 405 samples.

Results

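Variation between cortical cultures that received no test chemical was described over the 49 libraries whose titles begin with Vehicle and that have a column in the expression table of a chemical screen. That table held 393 libraries, and its 344 treated columns were left out. The series labels 405 samples, of which 52 were vehicle samples, and the table was used for 49 of those. Members were chosen by title alone and no measured value entered that rule, though earlier results of these data were known. The study sequenced polyadenylated RNA from mouse cortical neuron cultures exposed to environmental chemicals, with vehicle cultures as the comparison. All vehicle cultures came from embryos of C57BL/6J dams crossed to CAST/EiJ males, dissociated at embryonic day 15 per the labels, and RNA was taken after 24 h of exposure that began on day 7 in vitro. The study's methods give a slightly earlier embryonic stage than the labels. The vehicle, per those methods, was DMSO, the solvent of the chemical stocks. All had also received uridine and 5-fluoro-2'-deoxyuridine, which stop dividing cells, at a medium change before that. The labels do not say which libraries came from separate cultures, and they name no batch. The p-values below are for association between genes and treat the libraries as independent. They may be too small if some libraries share a culture, and part of the spread between libraries may be technical. The gene lists, pairs and anchors were chosen with earlier results of these data known, and the p-values make no allowance for that.

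Such cultures hold mostly excitatory neurons with inhibitory interneurons, astrocytes and smaller numbers of other cells. Neurons that fire switch on immediate early genes such as *Fos*, which are followed by later genes for secreted proteins such as *Bdnf*, a neurotrophin. Cells short of sterol raise the enzymes of cholesterol synthesis together through SREBP2, and cells short of oxygen raise glycolytic enzymes through hypoxia-inducible factors. In RNA from whole cultures, fewer cells of a type and less RNA per cell cannot be told apart.

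Values for the 49 libraries were log10 expression values from which the authors had subtracted gene medians and estimated batch effects. They are given here on the log2 scale, so that 1 unit is a doubling. They are deviations, not levels, and the depth behind them is unknown. Levels came from a second table, of raw counts, with 4 vehicle libraries of 2778615 to 7833440 counts, as CPM, counts scaled to the same library total. These 4 were not tied to single vehicle samples here. The first of the 4 stood apart from the others, with a root mean square deviation of 0.524 log2 units over genes of at least 5 CPM, against 0.203 to 0.262 in the other 3.

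Markers of the labelled cell type were present. All 16 genes of a list for excitatory cortical neurons were in the table and had at least 5 CPM. So did all 17 measured genes of 19 for GABAergic interneurons and 15 of the 16 measured for astrocytes and radial glia. Of all 13304 genes in the table, 10799 (81.2%) had at least 5 CPM. The authors had kept only genes with reads in nearly all samples. Of 19 microglia markers, 9 were in the table, and *Trem2*, *Tyrobp*, *Aif1*, *P2ry12* and *Tmem119* were among the 10 that were not. No gene of a list of 9 for red blood cells was in the table, nor were the endothelial markers *Cldn5* and *Pecam1* or the oligodendrocyte precursor marker *Pdgfra*.

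Library 71 stood apart from the other 48. Its root mean square deviation over the 13304 genes was 0.516 log2 units, above the limit of 0.465 (the upper quartile plus 1.5 interquartile ranges), and the next highest library had 0.427. It held the highest or lowest value for 18.1% of genes, and no other library did so for more than 6.76%. In library 71, the median deviation of 16 activity-dependent secreted and late genes was 1.53, against -0.48 to 0.35 in the other 48 libraries, and that of 18 immediate early genes was 0.98, against -0.56 to 0.29. GABAergic interneuron genes were higher there (0.79, against -0.42 to 0.44). Cell cycle genes were lower (-1.03, against -0.29 to 0.46), as were astrocyte and radial glia genes (-0.63, against -0.22 to 0.40) and microglia genes (-0.70, against -0.45 to 0.51). Other lists also lay outside the range of the other 48. These were hypoxia and glycolysis genes (-0.70, others down to -0.59), p53 target genes (-0.51, others down to -0.22), cholesterol synthesis genes (-0.40, others down to -0.36), amino acid and integrated stress response genes (0.37, others up to 0.23), respiratory chain genes (0.23, others up to 0.16), the 5 sex-linked genes (0.39, others up to 0.27) and the 2 measured pericyte genes (1.04, others up to 0.98). The contrast in this library is a description of a single culture. Counts of calls below are given with and without it, and so are many of the correlations.

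The standard deviation of a gene over the 49 libraries had a median of 0.25 log2 units, with quartiles of 0.16 and 0.41. With 49 libraries, the 95% interval of an SD runs from 0.834 to 1.25 times its value if values are normal. An SD above 0.1 on the log10 scale, the cutoff that the study used across its samples, was found for 4669 of 13304 genes, or 35.1%. Spread fell steeply with level. The median SD was 0.76 for the 249 genes under 1 CPM, 0.59 for 1 to 5 CPM, 0.35 for 5 to 20 CPM, 0.20 for 20 to 100 CPM and 0.12 for the 2450 genes above 100 CPM. The share of genes past the cutoff was 99.2% in the lowest group and 0.694% in the highest, so the cutoff mostly picked genes with few reads. The SD of log2 CPM was also taken over the 4 libraries with counts, for the 10799 genes of at least 5 CPM. Its rank correlation with the SD over the 49 libraries was 0.372, and 0.599 without the first of the 4. With the rank of mean CPM taken out, the value over all 4 was 0.294.

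**Figure D1:**
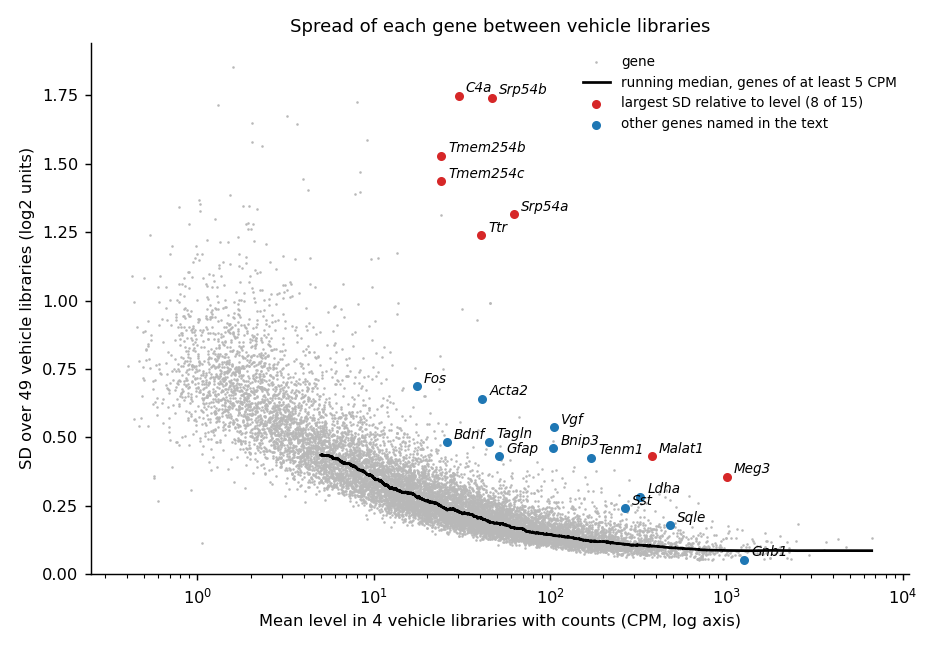
SD of each of 13304 genes over the 49 vehicle libraries (vertical axis, log2 units) against its mean level in the 4 vehicle libraries with counts (horizontal log axis, CPM), with a running median for genes of at least 5 CPM. Spread falls with level, and C4a, Srp54b, Srp54a, Tmem254b, Tmem254c and Ttr lie far above the genes of their level, with SDs of 1.24 to 1.75.

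The 20 genes with the largest SD, from 1.37 to 1.85, included 11 with a mean under 5 CPM, such as *2410021H03Rik* (SD 1.85 at 1.59 CPM) and *Rpl22l1* (1.68 at 3.21 CPM), a gene for a ribosomal protein paralog. The lowest value of *2410021H03Rik* was -4.76. How values of 0 were treated before the log10 step is not given in the sources used here, and that step bears on the lowest values and the SDs of genes with few reads. Several others belonged to gene families with near-identical copies, whose reads the counting could have split, and their values are uncertain for that reason. *H2-Q7* and *H2-Q9*, genes of the major histocompatibility complex, had SDs of 1.40 and 1.47 and correlated at r = 1.00. The 5 smallest SDs, each 0.05, were those of *Gnb1*, a G protein beta subunit at 1254 CPM, *Mapre2*, a microtubule-end protein, and *Pcdhgb5*, *Pcdhgc3* and *Pcdhga6*, gamma-protocadherins that share exons. *Gnb1* ranged over the 49 libraries only from -0.12 to 0.15.

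Relative to genes of similar level, the 15 most variable genes were led by *Srp54b* and *Srp54a*, neighbouring genes for the signal recognition particle's 54-kDa subunit on chromosome 12. *Srp54b* (mm9 chr12:56181483-56290200) ranged from -5.06 to 2.38 with a median of -0.47, and its SD of 1.74 exceeded the median for its level by 3.20 on the log2 scale. *Srp54a* (chr12:56181557-56214680), whose annotated span lies within it, ranged from -4.01 to 2.74, and the pair correlated at r = 0.94. The counts showed the same wide spread, with *Srp54b* at 117.9, 52.0, 7.84 and 8.95 CPM and *Srp54a* at 169, 49.1, 18.4 and 13.9 CPM in the 4 libraries. *Fam177a* (chr12:56225515-56243065), inside the annotated span of *Srp54b*, and *1700047I17Rik2* (chr12:56300579-56318129) just beyond it correlated at r = 1.00 (SD 0.99 each) and had the same CPM, from 26.1 to 76.7, so they may hold the same reads.

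*C4a* (mm9 chr17:34946037-34960409), which encodes a complement C4 isotype and has the near-identical copy *C4b*, ranged from -2.21 to 3.49 with a median of 0.69. It had an SD of 1.75, and its CPM in the count libraries were 67.6, 47.6, 3.66 and 2.31. *Ttr*, the carrier of thyroid hormone made in quantity by the choroid plexus, ranged from -3.57 to 2.64 (SD 1.24) and was at 111, 30.6, 16.5 and 4.91 CPM. *Clic6*, the other choroid plexus gene that followed it most, correlated with it at r = 0.54, while 6 of the 9 genes of the choroid plexus list, *Folr1* and *Otx2* among them, were not in the table. The 15 also held *Tmem254a*, *Tmem254b* and *Tmem254c*, *Trim43a*, *Igsf6*, *Tle2*, a Groucho corepressor, *4930447K03Rik* and the noncoding RNAs *Malat1* and *Meg3*. All 15 remained when the first count library was left out of the levels.

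**Figure D2:**
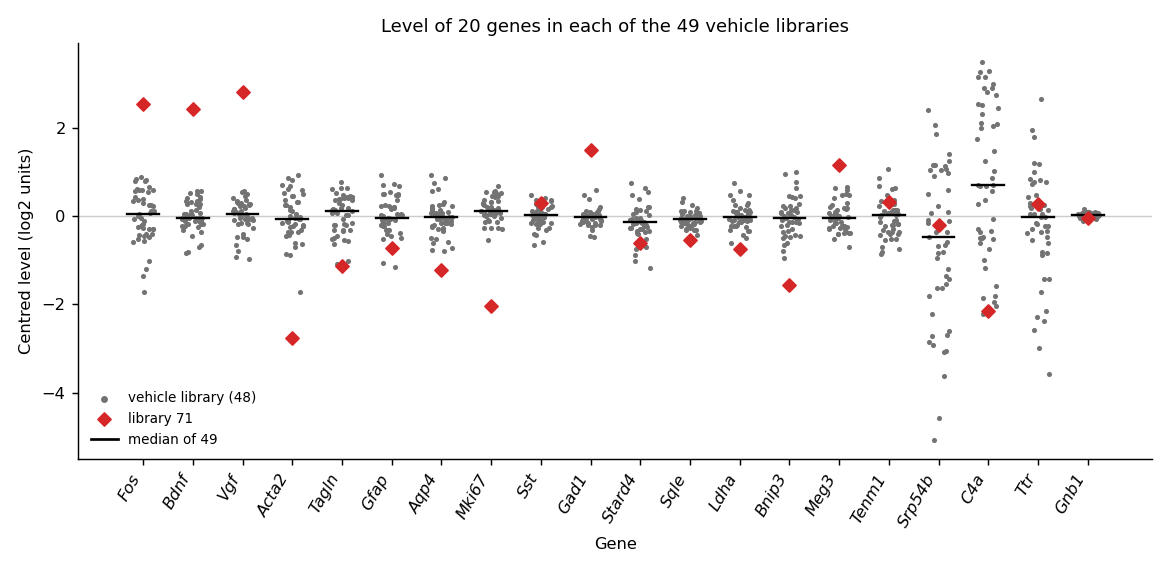
Centred level (vertical axis, log2 units) of 20 genes in each of the 49 vehicle libraries, with library 71 as a diamond and the median of 49 as a line. Fos, Bdnf, Vgf and Gad1 are highest and Acta2, Mki67, Aqp4 and Bnip3 lowest in library 71, while Srp54b, C4a and Ttr are spread across the libraries without it.

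Covariation was described by Pearson's r over libraries between the members of each of 24 gene lists with 3 or more measured genes. Over all 88491556 pairs of genes the median r was 0.00, the middle 90% lay between -0.27 and 0.27, and 3.45% of pairs exceeded 0.3. The list medians ranged from 0.01 for oligodendrocyte lineage genes to 0.68 for cholesterol synthesis genes. Only cholesterol synthesis (0.68) and hypoxia and glycolysis (0.53, or 0.47 without library 71) had medians above 0.4. Activity-dependent secreted and late genes fell from 0.34 to 0.19 without library 71, astrocyte and radial glia genes from 0.29 to 0.20, GABAergic interneuron genes from 0.23 to 0.13, immediate early genes from 0.22 to 0.12, and cell cycle genes from 0.10 to 0.04. The contractile genes of smooth muscle (0.20) and the genes of the fibrillar matrix (0.19) were at 0.21 and 0.21 without it.

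**Figure D3:**
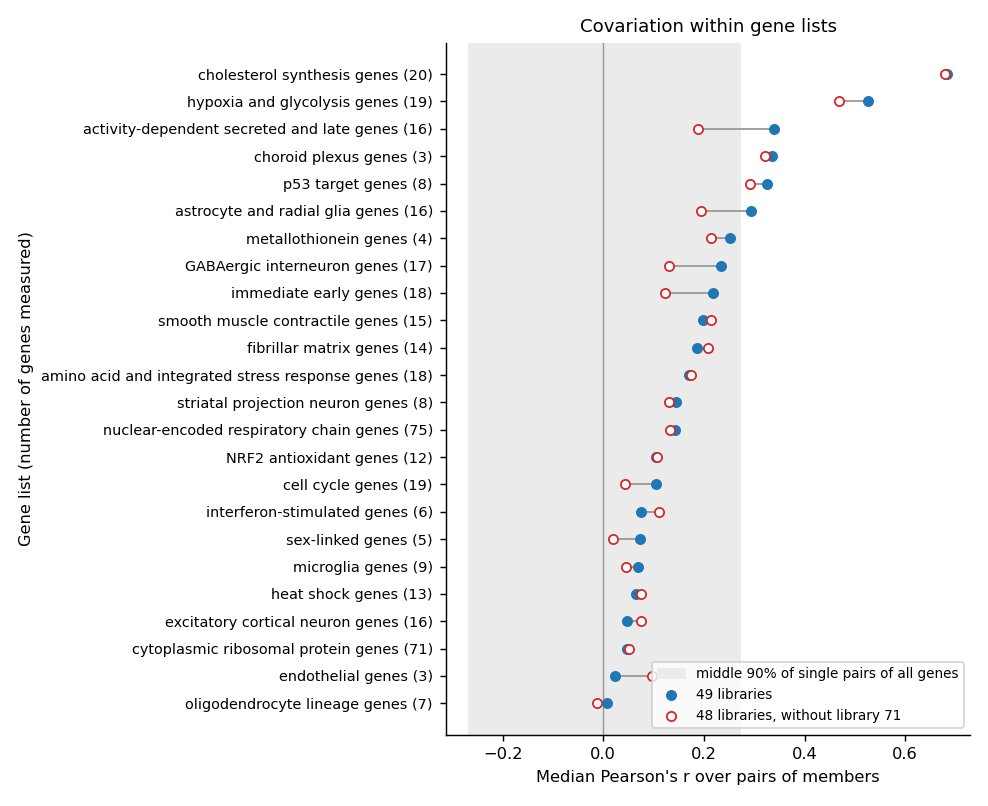
Median Pearson's r over all pairs of members of 24 gene lists in the 49 vehicle libraries (filled) and in the 48 without library 71 (open), beside the range that holds the middle 90% of single pairs of all genes (grey). Cholesterol synthesis and hypoxia and glycolysis stand at 0.68 and 0.53, and activity-dependent genes move most when library 71 is left out.

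Genes of cholesterol synthesis rose and fell together more than any other list. All 190 pairs of its 20 measured genes correlated positively, 90.5% of them above 0.3, and the median was 0.68 with library 71 and 0.68 without it. The swings were small. The median SD was 0.21, and 3 of 20 genes (15.0%) passed the cutoff on the SD that 35.1% of all genes passed, yet the SD stood above that of genes of similar level by a median of 0.77 on the log2 scale. *Mvd*, mevalonate diphosphate decarboxylase, had the largest SD (0.39, from -0.93 to 1.02), followed by *Stard4*, a sterol carrier (0.38, from -1.18 to 0.74).

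*Sqle*, squalene epoxidase, is given as a reference for the list, and its r with other genes were chosen after values were seen, since *Hmgcs1* was not in the table. It ranged from -0.54 to 0.40 with a median of -0.08 (SD 0.18) at a mean of 479 CPM. Over the 49 libraries its r was 0.87 with *Sc4mol*, a C4-methylsterol oxidase, 0.85 with *Mvd*, 0.82 with *Cyp51*, lanosterol demethylase, 0.79 with *Stard4* and 0.79 with *Insig1*, which retains the SREBP escort in the endoplasmic reticulum. *Pmvk*, phosphomevalonate kinase, was the member that followed it least, at 0.18 (0.42 without library 71). Outside the list, *Acly*, which supplies acetyl-CoA to sterol and fatty acid synthesis, reached 0.86. *Sqle* and *Mvd* were lowest in library 71, at -0.54 and -0.93, and both were highest in library 86, as was *Stard4*.

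Hypoxia and glycolysis genes formed the other tightly covarying list, with 94.7% of 171 pairs of 19 genes above 0. The fixed pair *Vegfa*, an angiogenic growth factor, and *Pgk1*, phosphoglycerate kinase, correlated at r = 0.73 (permutation p = 1e-05, the smallest that 100000 resamples can give, adjusted p = 3e-05 over 30 pairs) and rho = 0.71 (p = 1e-05, adjusted p = 4.29e-05). The correlation was 0.72 both without library 71 and without the 2 libraries farthest from the median of *Vegfa*. *Vegfa* ranged from -0.95 to 0.61 with a median of -0.35, and *Pgk1* from -0.96 to 0.50 with a median of 0.06, both lowest in library 5.

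*Ldha*, lactate dehydrogenase A, and *Bnip3*, a mitophagy receptor, were the pair of this list with the highest r, 0.94. *Ldha* ranged from -0.74 to 0.75 (SD 0.28) and *Bnip3* from -1.57 to 0.99 (SD 0.46), and both were lowest in library 71 and highest in library 86. *Hk2*, hexokinase 2, swung more widely, from -2.81 to 1.13 (SD 0.80). With *Vegfa*, r was 0.80 for *Aldoa*, fructose-bisphosphate aldolase, 0.79 for *Tpi1*, triosephosphate isomerase, 0.79 for *Ldha*, 0.78 for *Pdk1*, which restrains pyruvate dehydrogenase, and 0.80 for *Ddit4*, an mTORC1 inhibitor outside the list. *Adm*, adrenomedullin, followed it least, at 0.11. *Aldoart2* matched *Aldoa* closely in its r with *Vegfa* (0.80), and as a copy of *Aldoa* it may hold the same reads.

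The promoters of 4 of these genes are shown with the letters ACGTG, the core at which hypoxia-inducible factors bind. The list was chosen as hypoxia and glycolysis genes, and whether these factors moved it in the vehicle cultures was not tested. Promoters from RefSeq (GRCm38.p6, 250 bases before the annotated start) were found for 16 of the 19 measured genes, and 11 of the 16 (68.8%) held ACGTG on either strand, as did 25.4% of the 9942 genes of the expression table with a promoter and 18.5% of all 27025. A gene counted where any of its annotated promoters matched. Capitals mark ACGTG or its complement CACGT, and CACGTG holds both. The windows are chr7:46845554-46845803 (plus strand), chr7:138909507-138909756 (minus strand), chrX:106186850-106187099 (plus strand) and chr6:82774455-82774704 (minus strand), each written 5′ to 3′.
Ldha: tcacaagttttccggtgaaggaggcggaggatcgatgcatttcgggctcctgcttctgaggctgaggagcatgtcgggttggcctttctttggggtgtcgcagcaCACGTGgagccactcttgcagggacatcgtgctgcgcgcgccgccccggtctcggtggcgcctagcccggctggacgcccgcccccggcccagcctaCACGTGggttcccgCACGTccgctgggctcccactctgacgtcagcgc
Bnip3: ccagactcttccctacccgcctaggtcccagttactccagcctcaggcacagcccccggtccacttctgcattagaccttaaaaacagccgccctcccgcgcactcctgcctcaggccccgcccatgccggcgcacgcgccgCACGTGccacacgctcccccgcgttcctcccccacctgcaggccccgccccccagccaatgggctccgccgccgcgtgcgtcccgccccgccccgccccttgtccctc
Pgk1: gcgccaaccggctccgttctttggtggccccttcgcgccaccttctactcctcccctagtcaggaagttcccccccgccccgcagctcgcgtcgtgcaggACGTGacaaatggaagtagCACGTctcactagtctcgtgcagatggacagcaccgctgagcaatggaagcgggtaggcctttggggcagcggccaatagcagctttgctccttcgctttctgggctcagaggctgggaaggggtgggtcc
Hk2: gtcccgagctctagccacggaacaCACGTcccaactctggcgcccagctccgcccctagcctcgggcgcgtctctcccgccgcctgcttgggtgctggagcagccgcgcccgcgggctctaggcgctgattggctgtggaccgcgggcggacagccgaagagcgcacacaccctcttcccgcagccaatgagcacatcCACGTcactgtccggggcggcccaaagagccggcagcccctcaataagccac
*Ldha* held 5 matches and *Bnip3*, *Pgk1* and *Hk2* held 2 each. A match is a string of letters and not a binding site. Of the 20 cholesterol synthesis genes 12 had a promoter, and none held the letters TCACNCCAC of a sterol element in this window, which 1.25% of the genes of the table did.

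Activity genes were next. *Fos*, a subunit of the AP-1 factor, ranged from -1.71 to 2.52 with a median of 0.05 (SD 0.69), the highest value being that of library 71 and the next 0.88. Levels of 13303 other genes were regressed on *Fos* with limma, and 486 (3.65%) rose and 387 (2.91%) fell with it at an adjusted p below 0.05. Without library 71 the numbers were 86 (0.646%) and 31 (0.233%), so most of these calls rested on that library. Of the 17 other immediate early genes, 11 rose and 1 fell, and 7 rose without library 71. Those 7 were *Fosl2*, *Nr4a3*, *Nr4a1*, *Fosb*, *Npas4*, *Nr4a2* and *Arc*, which code for transcription factors except *Arc*, a synaptic protein. *Egr3*, a zinc finger factor, was the gene that fell (r = -0.46, adjusted p = 0.0179), and without library 71 its r was -0.33 (adjusted p = 0.325).

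*Bdnf* was the gene closest to *Fos* (r = 0.85, limma adjusted p = 4.31e-11). It ranged from -0.84 to 2.41 with a median of -0.04, and the second highest library had 0.57. By permutation the pair had p = 1e-05, adjusted p = 3e-05, and rho = 0.77 with adjusted p = 4.29e-05. Without library 71 r was 0.80, and without the 2 libraries farthest from the median of *Fos* 0.79. *Hunk*, a kinase, *Rgs2*, a regulator of G protein signaling, *Vgf*, a secreted neuropeptide precursor, and *Strip2* came next, with r of 0.83, 0.81, 0.77 and 0.75, and of 0.75, 0.73, 0.67 and 0.63 without library 71. The 3 genes with the lowest r were *Enc1*, an actin-binding protein of neurons (-0.79), *6330403A02Rik* (-0.72) and *Carhsp1*, an RNA-binding protein (-0.71), and all 3 passed without library 71 too.

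Within the 16 activity-dependent secreted and late genes, 10 rose with *Fos* and none fell, and *Bdnf*, *Vgf*, *Scg2*, a secretogranin, and *Adcyap1*, a neuropeptide, also passed without library 71. *Bdnf* and *Vgf* correlated at r = 0.86 (adjusted p = 3e-05, rho = 0.57), which was 0.70 without library 71. *Fos* and *Npas4*, a factor induced by calcium influx, had r = 0.70 (adjusted p = 3e-05), rho = 0.51 (adjusted p = 0.000627), and r = 0.57 without library 71. *Fos* and *Egr1* did not pass (r = 0.26, adjusted p = 0.139, and 0.13 without library 71), nor did *Bdnf* and *Crh*, corticotropin-releasing hormone (r = 0.27, adjusted p = 0.138, and 0.06 without library 71).

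The promoters of *Scg2* and *Pcsk1*, a convertase that cleaves prohormones, are shown as the members of the late list that held the cAMP response element TGACGTCA, which binds the activity-regulated factor CREB. Of 9 genes of that list with a promoter 2 held it (22.2%), as did 2 of 14 immediate early genes (14.3%), *Btg2* and *Dusp1*, against 3.15% of the genes of the table. The windows are chr1:79440027-79440276 (minus strand) and chr13:75089607-75089856 (plus strand), with the element in capitals. It reads the same on both strands.
Scg2: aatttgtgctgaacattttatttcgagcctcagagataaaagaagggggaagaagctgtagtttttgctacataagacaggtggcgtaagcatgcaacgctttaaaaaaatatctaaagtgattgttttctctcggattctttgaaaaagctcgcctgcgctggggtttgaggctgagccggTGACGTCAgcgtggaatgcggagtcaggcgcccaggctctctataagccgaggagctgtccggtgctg
Pcsk1: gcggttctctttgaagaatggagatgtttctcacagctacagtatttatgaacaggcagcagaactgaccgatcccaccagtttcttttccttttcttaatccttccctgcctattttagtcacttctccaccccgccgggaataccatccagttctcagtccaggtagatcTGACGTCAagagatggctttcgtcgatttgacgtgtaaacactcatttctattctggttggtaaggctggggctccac
*Scg2* correlated with *Fos* at 0.69 (limma adjusted p = 1.29e-05) and *Pcsk1* at 0.61 (adjusted p = 0.00027). Without library 71 these were 0.54 (adjusted p = 0.0173) and 0.48 (adjusted p = 0.0523).

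Astrocyte genes moved with each other, and *Gfap* ran opposite to *Fos*. *Gfap*, the intermediate filament of astrocytes, ranged from -1.16 to 0.92 with a median of -0.05 (SD 0.43), and library 71 had -0.73. With it, 101 genes (0.759%) rose and 144 (1.08%) fell, or 34 (0.256%) and 39 (0.293%) without library 71. Of 15 other astrocyte and radial glia genes, 7 rose and none fell, and 5 rose without library 71. *Aqp4*, a water channel, had r = 0.80 (permutation adjusted p = 3e-05, rho = 0.77, 0.79 without library 71) and *Slc1a3*, a glutamate transporter, 0.75 (adjusted p = 3e-05, rho = 0.71, 0.75 without library 71). *Sparcl1*, a secreted astrocyte protein, and *Aldoc*, aldolase C, followed with 0.79 and 0.75, or 0.78 and 0.73 without library 71. The lowest r were those of *Nap1l5* (-0.68), *Ppm1l*, a phosphatase (-0.67), and *Slc7a14* (-0.65).

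*Fos* and *Gfap* correlated negatively, at r = -0.50 (permutation p = 0.00046, adjusted p = 0.00115) and rho = -0.43 (adjusted p = 0.00538). The r was -0.44 without library 71 and -0.44 without the 2 libraries farthest from the median of *Fos*. With the first principal component, of which library 71 gave 56.6%, removed from every gene it was -0.20 and did not pass. Of 16 astrocyte and radial glia genes 8 fell and 1 rose with *Fos*, and none passed without library 71. *Gfap* was at 136, 19.9, 28.2 and 21.1 CPM in the 4 count libraries, and the first of these was also the highest in *Aqp4* and *Slc1a3* and lowest in *Gad1* and *Gad2*.

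**Figure D4:**
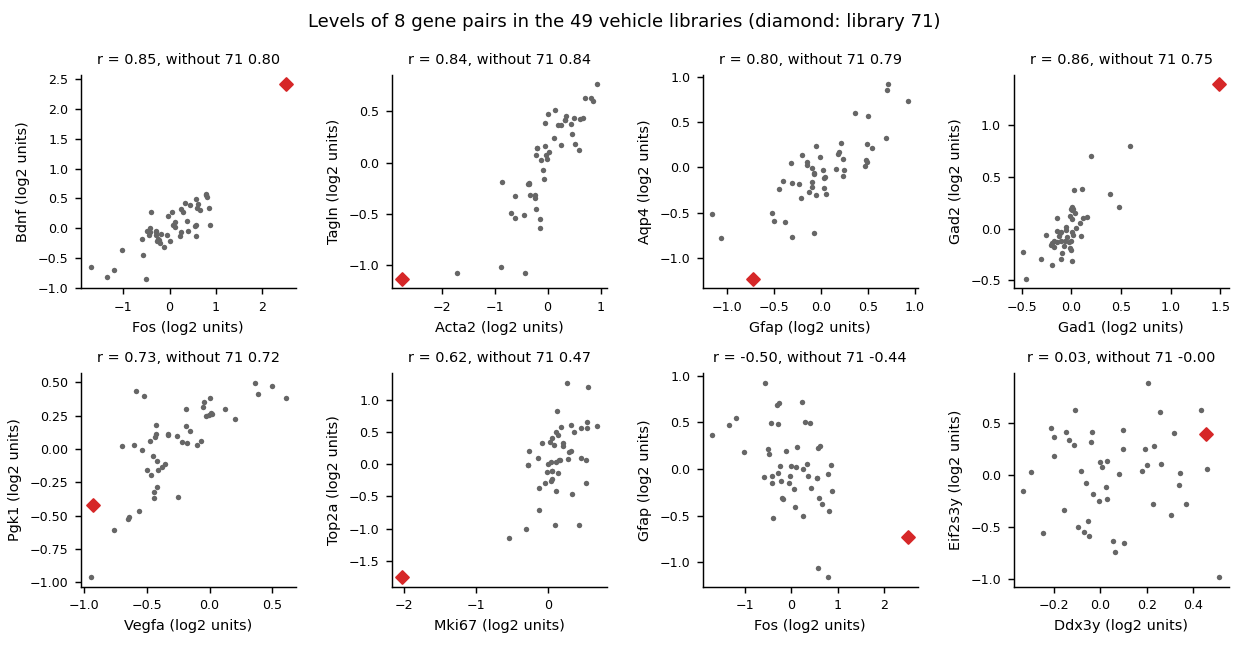
Centred levels (both axes, log2 units) of 8 gene pairs in the 49 vehicle libraries, with library 71 as a diamond. Acta2 and Tagln, Gfap and Aqp4, and Vegfa and Pgk1 covary across the libraries alike with and without library 71, Fos and Gfap run in opposite directions, and Ddx3y and Eif2s3y show no relation (r = 0.03).

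The contractile genes split into a tight pair and looser members. *Acta2*, smooth muscle actin, ranged from -2.76 in library 71 to 0.93 with a median of -0.06 (SD 0.64), and *Tagln*, transgelin, from -1.13 to 0.77 with a median of 0.10 (SD 0.48). They correlated at r = 0.84 (permutation adjusted p = 3e-05), rho = 0.88 (adjusted p = 4.29e-05) and r = 0.84 without library 71. With *Acta2*, 385 genes rose (2.89%) and 381 fell (2.86%), or 57 (0.428%) and 40 (0.301%) without library 71. Of 14 other contractile genes 6 rose and none fell, *Cnn2*, *Myl9*, *Thbs1*, *Cyr61* and *Lmod1* besides *Tagln*. Without library 71, *Lmod1* and *Cyr61* did not pass and *Tpm1*, a tropomyosin, did (r = 0.53, limma adjusted p = 0.039). *Cnn1*, calponin, at 1.38 CPM, did not pass against *Acta2* (r = 0.22, adjusted p = 0.213).

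The genes nearest to *Acta2* after *Tagln* were *Ccnd1*, cyclin D1 (r = 0.76), *Rrm2*, a ribonucleotide reductase subunit (0.74), *Nes*, the filament protein of neural progenitors (0.74), and *Kif1c*, a kinesin (0.74), and all 4 passed without library 71. Among the lowest were *Ptprn*, a protein of dense-core vesicles (-0.75), and *Atp6v0a1*, a subunit of the vesicular proton pump (-0.73). Of 14 matrix genes, *Sparc*, *Fn1*, fibronectin, and *Col5a2*, a collagen, rose with *Acta2*, and *Col1a1* did not pass (r = 0.03, adjusted p = 0.847, and 0.25 without library 71). Without library 71, *Sparc* did not pass (r = 0.47, limma adjusted p = 0.0773), and *Fn1* (0.60, adjusted p = 0.00374) and *Col5a2* (0.56, adjusted p = 0.0109) did. *Col1a1* and *Col1a2*, the chains of type I collagen, correlated with each other at 0.58 (adjusted p = 3e-05, rho = 0.53, 0.56 without library 71). *Acta2* and *Gfap* did not pass (r = 0.13, adjusted p = 0.47, and -0.02 without library 71).

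Among the regressed genes with any call, counts for *Sst* depended least on library 71. *Sst*, somatostatin, ranged from -0.66 to 0.48 with a median of 0.03 (SD 0.24), and library 71 was not extreme, at 0.30. With *Sst*, 277 genes rose (2.08%) and 213 fell (1.6%), and 188 (1.41%) and 155 (1.17%) did so without library 71. Of 16 other GABAergic interneuron genes 6 rose and none fell, with library 71 and without it. They were *Slc32a1*, the vesicular GABA transporter, *Dlx1* and *Lhx6*, factors of the interneuron lineage, *Nxph1*, and *Gad1* and *Gad2*, the enzymes that make GABA.

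*Sst* and *Gad1* correlated at r = 0.62 (permutation adjusted p = 5.45e-05), rho = 0.77 (adjusted p = 4.29e-05) and r = 0.75 without library 71. *Gad1* ranged from -0.48 to 1.484 and *Gad2* from -0.48 to 1.40, both highest in library 71, and the pair had r = 0.86 (adjusted p = 3e-05) or 0.75 without that library. The genes with the highest r to *Sst* were *Dnm1*, dynamin 1 (0.72), *Ndrg4* (0.68), *Pip5k1c*, a phosphoinositide kinase (0.67), *Cplx1*, complexin 1 (0.66), and *Scrt1*, a neuronal repressor (0.66). The lowest were *Thbs1*, thrombospondin 1 (-0.68), *Cald1*, caldesmon (-0.68), and *Igfbp3*, a binding protein for insulin-like growth factors (-0.66). Of 16 astrocyte and radial glia genes 5 fell with *Sst*, with library 71 and without it. *Sst* and *Npy*, neuropeptide Y, did not pass (r = 0.25, adjusted p = 0.152), and neither did *Gad1* and *Slc17a7*, the glutamate transporter of excitatory terminals (r = 0.21, adjusted p = 0.234, and 0.07 without library 71).

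Excitatory neuron genes had the lowest median SD of the lists for cell types (0.19), with a largest SD of 0.27 (*Slc17a6*), and none of 16 past the cutoff. Relative to the median SD at their level, the median log2 ratio was 0.25. It was -0.00 for the 6 oligodendrocyte lineage genes of at least 5 CPM. Only 1 endothelial gene had that level, with a ratio of -0.10. *Slc17a7* ranged from -0.38 to 0.48. Their median pairwise r was 0.05. Among striatal projection neuron genes, *Drd2*, a dopamine receptor, had the largest SD (0.69), and the median r was 0.14.

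*Mki67*, a marker of cycling cells, shows how far a single library reached. It ranged from -0.54 to 0.68 over 48 libraries and was at -2.03 in library 71. With it, 464 genes rose (3.49%) and 514 fell (3.86%). Without library 71, 4 rose (0.0301%) and none fell. With ranks in place of values 0 genes passed, although 1188 had an unadjusted p below 0.05. Of 18 other cell cycle genes 3 rose with *Mki67*, and none did without library 71. Only 7 of the 19 measured genes of that list had at least 5 CPM. *Tuba1c*, an alpha-tubulin, correlated with *Mki67* at 0.72, and at 0.01 without library 71. *Ccng1* and *Trp53inp1*, targets of p53, had 0.75 and 0.74, and 0.53 and 0.54 without it (adjusted p = 0.0776 and 0.0756). *Mki67* and *Top2a*, topoisomerase II alpha, kept a correlation, with r = 0.62 (permutation adjusted p = 3e-05), rho = 0.52 (adjusted p = 0.00057), and r = 0.47 without library 71 (adjusted p = 0.00224).

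Microglia genes had few reads and showed little covariation. *Cx3cr1*, the fractalkine receptor, at 4.88 CPM, ranged from -1.30 to 1.18 (SD 0.49), and no gene passed against it by limma on values or on ranks, with 553 and 562 genes at an unadjusted p below 0.05 (649 on values without library 71). *Cx3cr1* and *Csf1r*, the receptor for colony-stimulating factor 1, at 2.32 CPM, had r = 0.07 (adjusted p = 0.764, and 0.02 without library 71). *C1qa* and *C1qb*, subunits of complement C1q at 7.44 and 5.91 CPM, had r = 0.06 (adjusted p = 0.787, and 0.02 without library 71). All 9 measured microglia genes had SDs above the cutoff, from 0.38 to 0.85, as did most genes of this level.

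Among stress lists, amino acid and integrated stress response genes had a median r of 0.17, NRF2 antioxidant genes 0.11, heat shock genes 0.07 and interferon-stimulated genes 0.08, for which 6 of 20 genes were measured. *Chac1* and *Trib3*, targets of ATF4, did not pass (r = 0.21, adjusted p = 0.224). *Cth*, cystathionine gamma-lyase (SD 0.98), and *Gsta4*, a glutathione transferase (SD 1.02), varied most in the first and second of these lists. The 8 p53 target genes had a median r of 0.33, or 0.29 without library 71. Of them, 5 rose with *Acta2*, and 1 without library 71, against 2.89% and 0.428% of all genes. Of the remaining lists, the median r was 0.34 for the 3 measured choroid plexus genes, 0.25 for 4 metallothionein genes, 0.14 for 75 nuclear-encoded respiratory chain genes, 0.07 for the 5 sex-linked genes (0.02 without library 71), 0.05 for 71 cytoplasmic ribosomal protein genes and 0.02 for 3 endothelial genes. Of 6 pericyte genes 2 were measured. With a length and GC trend removed, the median r was 0.08 for the respiratory chain genes and 0.02 for the ribosomal protein genes. Of the 71 ribosomal protein genes, 41 had at least 5 CPM.

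All 5 sex-linked genes were measured in the cultures, and *Xist*, the noncoding RNA of the inactive X chromosome, and the Y-linked genes were present in the same count libraries. *Xist* (mm9 chrX:100655714-100678556) had 225, 632, 464 and 598 CPM, *Ddx3y* 25.1 to 47.8 CPM and *Eif2s3y* 4.83 to 19.3 CPM. *Xist* ranged from -0.84 to 0.43 (SD 0.27). Its r with *Ddx3y* was 0.11 (adjusted p = 0.554, and 0.04 without library 71) and with *Eif2s3y* 0.33 (adjusted p = 0.0498, and 0.0794 without library 71, where r was 0.31). *Ddx3y* and *Eif2s3y*, an RNA helicase and a translation factor, did not pass against each other (r = 0.03, adjusted p = 0.847, and -0.02 to 0.16 when each library was left out in turn).

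With *Xist*, 28 genes rose (0.21%) and 11 fell (0.0827%), or 16 (0.12%) and 3 (0.0226%) without library 71. The closest were *Tsix* (r = 0.74), *Ttc14* (0.73), *Meg3* (0.66), *Ubn2* (0.64) and *Akap13* (0.62), and all 5 passed without library 71. *Tsix* (chrX:100626856-100680296) runs antisense across *Xist*, and no use of strand is stated for the counting, so the reads of the pair cannot be told apart. The lowest r were those of *Tubb2a* (-0.66) and *Tubb5* (-0.59), which code for beta-tubulins, and *Actb*, beta-actin (-0.58). Without library 71, *Tubb2a* passed (adjusted p = 0.023) and *Tubb5* (0.079) and *Actb* (0.156) did not.

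*Meg3*, *Miat*, *Snhg11* and *Malat1* are noncoding RNAs that stay largely in the nucleus. *Meg3* had an SD of 0.36 at 1003 CPM, above the median for its level by 2.04 on the log2 scale. It was highest in library 71, at 1.16, with the next library at 0.66, and its SD was 0.32 without library 71. Over all 49 libraries it correlated at 0.96 with *Miat* and at 0.94 with *Snhg11*. Both were among the highest r of any genes that neither overlap nor share a name, and they are not given without library 71. *Malat1* ranged from -0.79 to 1.23 (SD 0.43 at 378 CPM) and had r of 0.57 with *Xist*, 0.54 with *Meg3*, 0.72 with *Ubn2*, a chromatin protein, and 0.63 with *Srrm2*, a splicing protein. These values changed by little without library 71 (0.58, 0.58, 0.72 and 0.63). With a length and GC trend removed, r was 0.58 with *Ubn2* and 0.52 with *Srrm2*. That removal left *Malat1*, *Xist* and *Meg3* themselves unchanged, so it does not bear on their r with each other. *Miat*, *Snhg11* and *Srrm2* were named after their values were seen, and the r are given with no test.

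*Tenm1* and the genes described with it were named after their values were seen. *Tenm1*, a teneurin of synapses, ranged from -0.86 to 1.06 (SD 0.43 at 170 CPM), and its r was 0.86 with *Akap6*, an anchoring protein, 0.85 with *Cadm2*, a synaptic adhesion molecule, 0.83 with *Nbea*, neurobeachin, and 0.83 with *Grm5*, a glutamate receptor, with *Tenm1* in library 71 at 0.31. *Eef1a1*, the elongation factor, ran opposite at -0.63. Libraries differed in the slope of expression on transcript length: over genes, r between log2 transcript length and the deviation ran from -0.15 to 0.30 across libraries. *Tenm1* followed that library value at 0.75 and *Akap6* at 0.76, and with a length and GC trend removed from each library r between them was 0.70. Under the same removal the r of *Tenm1* was 0.73 with *Cadm2*, 0.60 with *Nbea*, 0.73 with *Grm5* and -0.32 with *Eef1a1*. *Fos*, *Mki67*, *Acta2* and *Sst* followed the library value for transcript length at 0.17, 0.10, 0.11 and -0.03. *Gfap*, *Xist* and *Malat1* followed it at -0.29, 0.37 and 0.45. For the same kind of library value for GC content, *Sst* had 0.47 and *Xist* -0.36. *Fos*, *Acta2*, *Gfap* and *Mki67* had -0.19 to -0.11 there. The library median of genes over 100 kb was followed more closely than the value for transcript length, by *Tenm1* at 0.92, *Akap6* at 0.88, *Cadm2* at 0.80 and *Nbea* at 0.82. The removed trend was of transcript length and GC and not of gene length. The part of library trends in the r of *Tenm1* was not tested further.

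The mean standardised levels of the lists were set against each other as a description over 49 libraries that share a normalization, with no length and GC trend removed. Cholesterol synthesis and hypoxia and glycolysis ran together (r = 0.67, and 0.64 without library 71), as did contractile and matrix genes (0.68 and 0.68), contractile and p53 target genes (0.62 and 0.60), and cytoplasmic ribosomal protein and respiratory chain genes (0.68 and 0.75). GABAergic interneuron genes ran opposite to cell cycle genes (-0.74 and -0.54) and to astrocyte and radial glia genes (-0.66 and -0.49). Immediate early and late activity genes had 0.73, and 0.56 without library 71. Immediate early genes also ran with amino acid and integrated stress response genes, at 0.60 and 0.50.

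**Figure D5:**
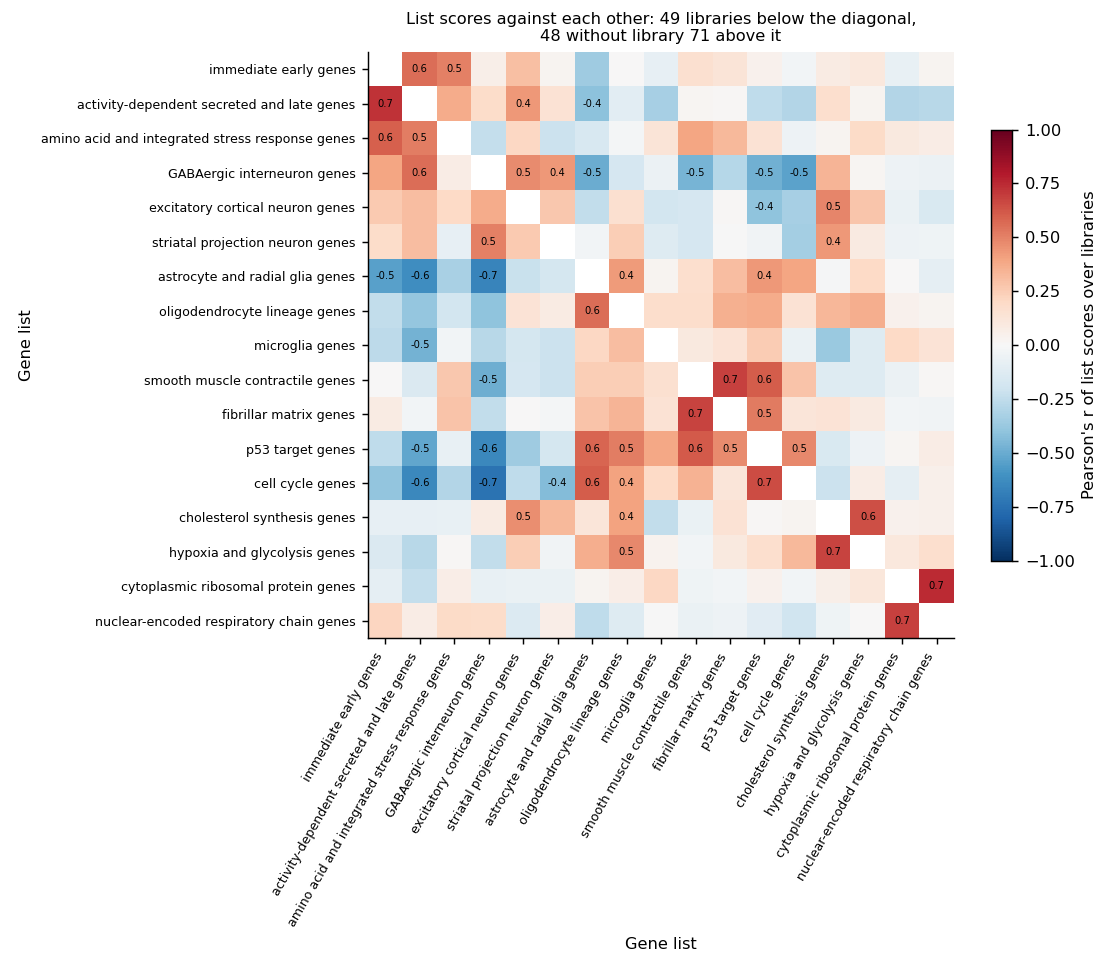
Pearson's r between the mean standardised levels of 17 gene lists (both axes), over 49 vehicle libraries below the diagonal and over the 48 without library 71 above it; numbers are printed for values of 0.4 or more in size. Contractile, matrix and p53 target genes form a positive block, cholesterol synthesis pairs with hypoxia and glycolysis, and interneuron genes oppose astrocyte and cell cycle genes.

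Most gene pairs with r above 0.9 were clustered protocadherins. Of the 378 pairs, 301 were pairs of clustered protocadherins, which share their 3′ exons. Of the remaining 77, 35 overlapped in the mm9 annotation and 15 others shared the stem of their name, such as *Amd1* and *Amd2*. The 27 left included likely copies, such as the ribosomal protein gene *Rpl26* and the predicted gene *Gm15772*, and a few pairs of separate loci, such as *Fut9*, a fucosyltransferase, and *Rab3c*, a synaptic vesicle GTPase (0.94), *Ldha* and *Bnip3*, and *Meg3* and *Miat*.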

How the data were processed

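Polyadenylated RNA from the vehicle cultures was sequenced with a TruSeq kit. For the screen table, the authors aligned reads to mm9 with TopHat (per the submitters' processing notes), kept longer genes with RPKM above 0 in nearly all samples, took log10, quantile-normalized, subtracted gene medians and used a mixed model to remove batches of culture and of sequencing, so levels, depth and any difference tied to a batch are lost. The second table held raw counts per gene as deposited by the authors, for 4 vehicle libraries. The 344 treated columns of the screen table and the other count table were not used.

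Values were multiplied to the log2 scale. SDs, Pearson and Spearman correlations, two-sided permutation tests (100000 resamples, 30 gene pairs, Benjamini-Hochberg) and figures were made in Python 3.11.15 with numpy 2.4.6, pandas 2.3.3, scipy 1.17.1 and matplotlib 3.10.9. Counts were scaled by TMM (edgeR 4.0.16, with DESeq2 1.42.0 as an alternative, R 4.3.3). Each of 13303 genes was regressed on each of 7 anchor genes in limma 3.58.1, with an adjusted p of 0.05 as the threshold. The anchors *Pdgfra*, *Hmgcs1* and *Ifit1* were not in the table. The regressions and permutation tests were first tested on simulated data. Level-relative SD was the log2 ratio to a running median of SD over level, for genes of at least 5 CPM. Named genes were the anchors, the fixed pairs, the 20 largest and 5 smallest SDs, the 15 largest level-relative SDs and, for each anchor, the 5 highest and 3 lowest r. Members, the 26 gene lists, pairs and anchors were chosen with earlier results of these data known. Some genes that these rules cover are not reported here.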

Additional observations from a re-analysis of the deposited data

Results flagged for a closer look

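In the 4 vehicle libraries with counts, 6 of 32 genes examined had a library whose gap to the nearest other, as a share of the whole range of log2 CPM, exceeded the 95% critical value of Dixon's ratio. Chance gives this for about 1 in 20 genes, and the genes share their libraries. For 5 of the 6 the library was the one that stood apart over all genes. *Gad2* (ratio 0.916) had 68.0 CPM there and 220.0 to 245.1 CPM in the other 3, *Gad1* (0.862) had 141 against 268 to 297 CPM, and *Npy* (0.845) had 13.5 against 33.6 to 39.7 CPM. *Slc1a3* (0.862) was higher there, at 370.1 CPM against 157 to 177 CPM, as was *Acta2* (0.836), at 72.5 against 28.5 to 33.2 CPM. For *Slc17a7* (0.96) the third library was the odd one, with 340.5 CPM against 288.2 to 290.1 CPM.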

How the results depend on the processing

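No paired analysis was possible because the vehicle libraries form a single group and no groups were compared. The genes with an SD above the cutoff numbered 4669, 2305 with a cutoff of 0.15 on the log10 scale and 2182 among genes of at least 5 CPM only. Of 13303 genes, 6.56% moved with *Fos*, 0.496% with ranks in place of values, 0.88% without library 71, 0.323% with the first principal component removed and 3.09% at an adjusted p of 0.01. In the same order of settings, the shares were 5.76%, 0.421%, 0.729%, 0.406% and 2.26% for *Acta2*, 1.84%, 0.609%, 0.549%, 0.0226% and 0.368% for *Gfap*, 7.35%, 0%, 0.0301%, 0% and 3.28% for *Mki67*, 3.68%, 1.11%, 2.58%, 1.31% and 0.842% for *Sst*, and 0.293%, 0.188%, 0.143%, 0.0526% and 0.0827% for *Xist*. Where no gene moved with *Mki67* by limma, 1188 and 1198 genes had an unadjusted p below 0.05. With a length and GC trend removed, 2.35% of genes moved with *Sst* and 0.0902% with *Xist*. That removal covered the 12619 genes with a known transcript length and GC content and left *Xist* itself unchanged. With the first component removed, correlations that had not passed came to pass with the other sign, at -0.48 for *Fos* and *Sst* (0.02 before), 0.33 for *Fos* and *Acta2* (-0.22), -0.41 for *Acta2* and *Gfap* (0.13) and -0.45 for *Mki67* and *Gfap* (0.16), and some that passed in neither case also changed sign. *Fos* and *Gfap* no longer passed there (-0.20), and *Xist* and *Eif2s3y* passed on all values and on ranks but not under the other 4 settings (0.28 to 0.31). The median r of endothelial genes moved from 0.02 to 0.10 without library 71. The rank correlation of spread with the count table ran from 0.267 to 0.599 when each count library was left out, the highest without the first. The causes were not tested.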
